A study of Mus musculus with 6 samples.

Results

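The 7 chemokine ligand genes Cxcl10, Cxcl9, Cxcl16, Xcl1, Ccl3, Ccl4 and Ccl5 were measured in CD8+ T cells sorted from the tumor-draining lymph nodes of melanoma-bearing mice. They were chosen by gene symbol, and all 7 were found in the deposited count table, out of 49315 genes. The combination group (n = 3 mice) received HCW9218 under the skin with anti PD1 into the peritoneum, and the monotherapy group (n = 3 mice) received HCW9218 alone. HCW9218 is, by the title of the series, a complex of TGF-βRII and IL-15, and PD1 is an inhibitory receptor of T cells. All mice were female C57Bl6/J of WT genotype, carried B16F10 tumors (written B26F10 in the sample labels), were dosed once at a tumor volume of 50 to 100 mm3 and were killed on day 5. Their age is not given in the sources used here. Both groups received HCW9218 and no untreated mice were analysed here, so each difference is one between the combination and monotherapy groups. Other differences between the libraries are given below and were not separated from the treatment. The sort took total CD8+ T cells, which mixes naive, memory and effector cells, so more or fewer cells of a type cannot be told apart from more or less RNA per cell.

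Chemokines are small secreted proteins that bind G protein-coupled receptors and draw cells along a gradient. Cxcl9 and Cxcl10 are induced by interferons, mostly in myeloid and stromal cells but also in activated T cells, and bind Cxcr3, which effector T cells carry. Ccl3, Ccl4 and Ccl5 are inflammatory chemokines that draw T cells and monocytes, and Ccl5 in particular is a transcript of memory and effector CD8 T cells and NK cells. Xcl1, made by activated CD8 T cells and NK cells, draws cross-presenting dendritic cells that carry Xcr1. Cxcl16 is made as a membrane protein, mainly by myeloid cells, is released by ADAM proteases and binds Cxcr6.

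The promoters of Cxcl10 and Cxcl9 are printed because these nearby genes share a receptor and an inducer and only Cxcl10 passed the test below. Each line holds 250 bases before and 50 bases after the start site, from RefSeq on GRCm38.p6, read 5′ to 3′ on the minus strand. Cxcl10 lies at chr5:92348840-92349139 and Cxcl9 at chr5:92328030-92328329. Capitals mark every match, on both strands, to 6 motifs, namely an ISRE-like motif (the interferon-stimulated response element, here GAAA and GAAA set 2 bases apart), a GAS-like motif (the interferon-gamma activated site, TTCNNNGAA), an NF-kB-like motif (GGG and CC set 5 bases apart), AP-1 (TGANTCA), a T-box element (AGGTGTGA) and CRE (TGACGTCA).
Cxcl10 promoter: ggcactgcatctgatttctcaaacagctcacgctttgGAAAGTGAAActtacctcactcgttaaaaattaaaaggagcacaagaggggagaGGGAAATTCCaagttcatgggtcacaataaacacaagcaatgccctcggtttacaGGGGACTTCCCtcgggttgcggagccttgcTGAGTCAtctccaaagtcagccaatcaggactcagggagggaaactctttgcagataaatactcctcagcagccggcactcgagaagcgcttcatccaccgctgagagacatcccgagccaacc
Cxcl9 promoter: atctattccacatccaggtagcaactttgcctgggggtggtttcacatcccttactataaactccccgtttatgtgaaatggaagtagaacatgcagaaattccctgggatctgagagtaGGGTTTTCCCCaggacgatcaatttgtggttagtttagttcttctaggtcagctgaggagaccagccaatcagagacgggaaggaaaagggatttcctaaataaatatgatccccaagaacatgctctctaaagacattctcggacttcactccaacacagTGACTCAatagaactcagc
The Cxcl10 window held the ISRE-like match GAAAGTGAAA, whose first base lies at -213 from the start site, a motif found in 3.44% of the 32851 promoters searched. It also held NF-kB-like matches from -159, from -104 and, overlapping that one, from -103, and TGAGTCA from -74. NF-kB-like letters occur in 50.8% of all promoters and the AP-1 letters in 7.81%. The Cxcl9 window held overlapping NF-kB-like matches from -130 and TGACTCA 32 bases into the transcript, and it held no ISRE-like match. The GAS-like, T-box and CRE letters, present in 8.30%, 1.28% and 1.79% of promoters, matched in neither window. Promoters of Ccl3 and Xcl1 held 0 matches to the 6 motifs. These are letter matches within 300 bases and say nothing of whether a factor binds. Those of Ccl4, Ccl5 and Cxcl16 were not used here.

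Each library held 34568074 to 39120808 counts in the combination group and 37116680 to 40101346 counts in the monotherapy group. Summed over Cd3e, Cd3d, Cd3g, Cd8a and Cd8b1, CD8 T cell transcripts stood at 3767 to 5029 counts-per-million (CPM) in the combination and 4125 to 5078 CPM in monotherapy. Several libraries stood apart in ways that touch the members. Combination replicate 3 had 1.73% of its counts in mitochondrial genes, against 2.58% to 3.35% in the other 5 libraries, and its genes with under 1000 bases of exon lay at a median of -0.14 from their mean over the libraries on the log2 scale. In combination replicate 1 the same genes lay at 0.20, the farthest from 0 of the 6 libraries. Combination replicates 2 and 3 held 582 and 743 counts of the pigment genes Dct and Tyrp1, against 0 in combination replicate 1 and 0 or 1 in monotherapy. Monotherapy replicate 3 held 57 counts of the neutrophil gene S100a9, which was at 0 in the other 5 libraries, and 22 counts of the macrophage gene C1qc, against 0 to 5 in the others. Monotherapy replicate 1 held 349 counts of the fibroblast collagen gene Col1a1, against 48 to 139 in the others, and 279 of Col3a1, against 11 to 128.

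**Figure D1:**
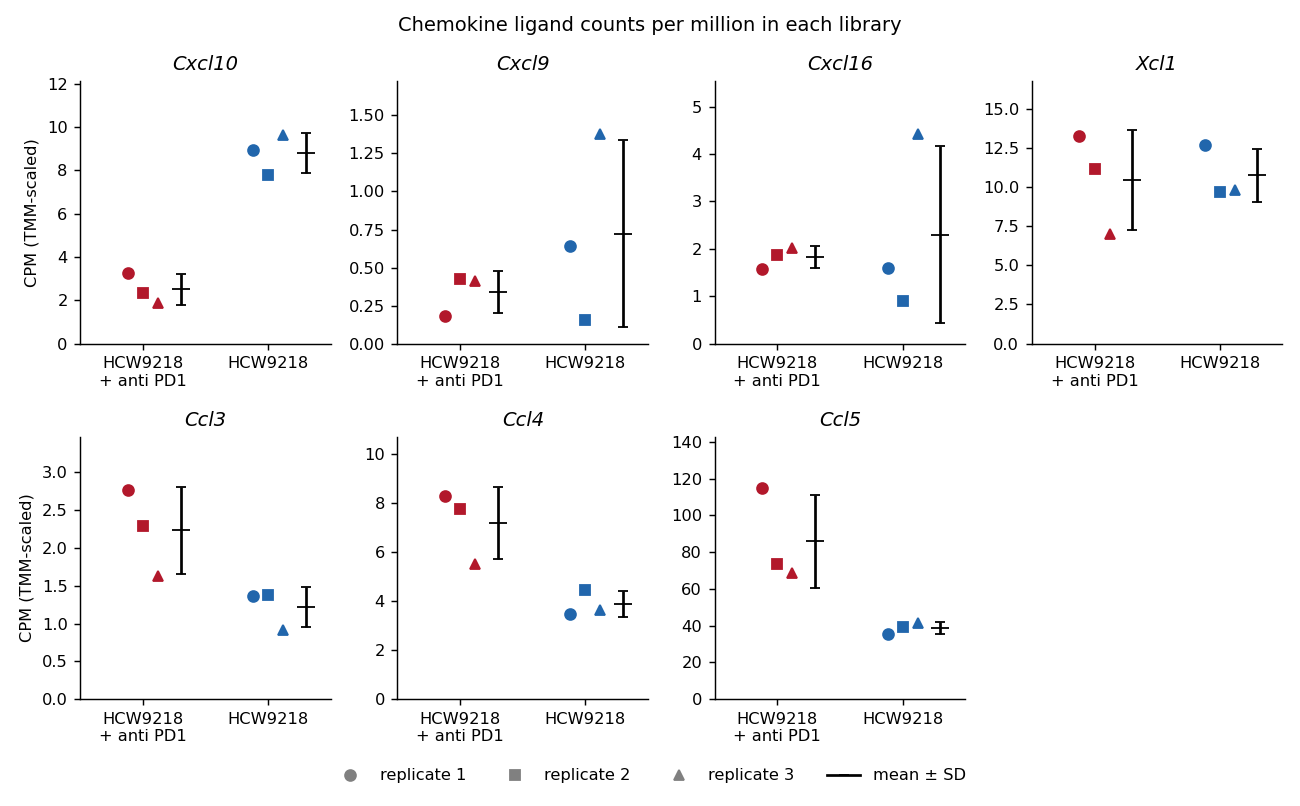
CPM of each of the 7 chemokine ligands in each library, with the combination group on the left and monotherapy on the right of each panel; black marks are the mean ± SD over 3 mice. Cxcl10 lies lower in all 3 combination libraries, Ccl3, Ccl4 and Ccl5 lie higher, and monotherapy replicate 3 lies above every other library for Cxcl9 and Cxcl16.

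In the combination against monotherapy, Cxcl10 fell and Ccl5 rose. Ccl3 and Ccl4 lay higher in all 3 combination libraries but did not pass the test, and Xcl1, Cxcl16 and Cxcl9 overlapped between the groups. Values are counts as deposited, scaled to CPM with TMM factors, and were tested with edgeR's quasi-likelihood test over the 15142 genes with enough counts, which included all 7 members. A rise or a fall below means a Benjamini-Hochberg adjusted p under 0.05. Of the 7, 1 rose and 1 fell, where 1.08% of all genes tested passed, 0.951% as higher and 0.132% as lower. Groups without overlap were seen for 4 of the 7, against 14.7% of all genes. The median log2 fold change of the 7 was -0.04, against 0.00 (-5.98e-04) over all genes. Without monotherapy replicate 1 or 3 none of the 7 passed, and without monotherapy replicate 2 or combination replicate 2 only Cxcl10 did.

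**Figure D2:**
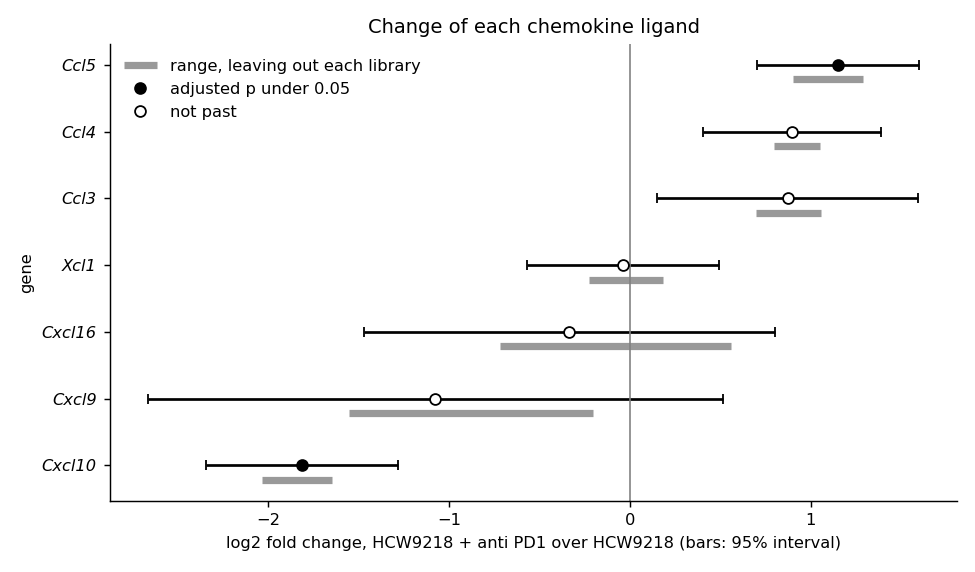
Log2 fold change of each ligand, combination over monotherapy, from edgeR's quasi-likelihood fit, with unadjusted 95% intervals as thin bars and the range of values when each library is left out in turn as grey bars. Filled points, Ccl5 and Cxcl10, passed at an adjusted p under 0.05; the grey bars of Xcl1 and Cxcl16 cross 0.

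Cxcl10, the interferon-induced ligand of Cxcr3, is encoded on the minus strand of chromosome 5 at 92346638 to 92348889 (GRCm38). It had 3.28, 2.35 and 1.89 CPM in combination replicates 1, 2 and 3, against 8.94, 7.80 and 9.63 CPM in monotherapy replicates 1, 2 and 3. The highest combination library thus lay well under the lowest monotherapy library. The means were 2.51 ± 0.709 CPM in the combination and 8.79 ± 0.923 CPM in monotherapy (SD, n = 3 each). Cxcl10 fell by 1.81 ± 0.24 (SE) on the log2 scale, with an edgeR adjusted p of 7.90e-03 and a 95% interval of -2.34 to -1.28. Among all 15142 genes tested, 9 had a lower log2 fold change. It lost its call without monotherapy replicate 1 (log2 fold change -1.79, adjusted p = 0.0672) and without monotherapy replicate 3 (-1.74, adjusted p = 0.0607), within a range of 1.09e-10 to 0.0672 over 16 other settings. In combination replicate 1, the library without Dct and Tyrp1 counts, set alone against monotherapy, the log2 fold change was -1.43, a value of 1 library with no spread of its own. Stromal and endothelial markers, 9 genes, summed to 121 to 142 CPM in the combination and 137 to 177 CPM in monotherapy, highest in replicate 1. Most of that sum was Pecam1, at 118 to 132 CPM in the combination and 134 to 153 CPM in monotherapy. The sum thus follows that 1 gene and is no measure of stromal and endothelial cells. The endothelial gene Cdh5 had 4 to 7 counts in the combination and 9 to 15 in monotherapy. Lyve1 had 2 to 12 counts in the combination and 1 to 4 in monotherapy, and Madcam1 had 0 to 5 and 0 or 1. The part of stromal and endothelial cells in the level of Cxcl10 was not tested.

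The Cxcl10 counts come from a gene model that limits what they mean. In the deposited files its exons merge into 1 block of 2252 bases that spans the whole gene, introns included, where its longest protein-coding transcript in GENCODE M21 has 1353 bases. Of the 2252 bases, 133 are shared with exons of Art3, a gene on the opposite strand. Because the strand setting of the counting is not given in the sources used here, reads there cannot be told apart. Art3, an ADP-ribosyltransferase family gene, had 24 to 44 counts in the combination and 27 to 57 in monotherapy, while Cxcl10 had 73 to 108 counts in the combination and 307 to 399 in monotherapy. The log2 fold change of Art3 was 0.01 ± 0.43 (SE). With the counts of both genes summed, the log2 fold change was -1.48 and edgeR's adjusted p was 0.0176.

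Cxcl9, close to Cxcl10 on chromosome 5 (92321347 to 92328079, minus strand) and likewise a Cxcr3 ligand, was the scarcest of the 7. It had 6, 16 and 16 counts in combination replicates 1, 2 and 3, against 23, 6 and 57 counts in monotherapy replicates 1, 2 and 3. In CPM these were 0.182, 0.422 and 0.414 in the combination, against 0.641, 0.152 and 1.38 in monotherapy. The groups overlapped, since monotherapy replicate 2 lay below every other library and monotherapy replicate 3 above every other. The log2 fold change was -1.08 ± 0.71 (SE; edgeR adjusted p = 0.842), with a 95% interval of -2.66 to 0.51 that reaches from a deeper fall than that of Cxcl10 to a rise. Without monotherapy replicate 3 it was -0.20. No difference in Cxcl9 was detectable beyond the spread between these mice.

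Cxcl16, the ligand of Cxcr6, lies on the minus strand of chromosome 11 at 70453983 to 70459984, and 552 of its 3021 exon bases are shared with Zmynd15 on the opposite strand, which did not pass either, at a log2 fold change of 0.24. Its levels were 1.58, 1.87 and 2.02 CPM in combination replicates 1, 2 and 3, against 1.59, 0.889 and 4.42 CPM in monotherapy replicates 1, 2 and 3. The combination libraries lay close together and the monotherapy libraries spread on both sides of them. The means were 1.82 ± 0.224 CPM in the combination and 2.30 ± 1.87 CPM in monotherapy (SD, n = 3 each). The log2 fold change was -0.33 ± 0.51 (SE; edgeR adjusted p = 0.964), and 0.56 without monotherapy replicate 3.

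The summed markers of myeloid cells were highest in that same library, though not every marker was. The 12 macrophage and monocyte markers summed to 12.7 to 14.8 CPM in the combination and 9.53 to 22.3 CPM in monotherapy, where the highest value belonged to replicate 3 and the lowest to replicate 2. The 5 neutrophil markers summed to 0.207 to 0.273 CPM in the combination, and to 0.0557 and 0.102 CPM in monotherapy replicates 1 and 2, against 2.82 CPM in replicate 3. Dendritic cell markers, 11 genes, stood at 33.1 to 65.8 CPM in the combination and 34.1 to 80.5 CPM in monotherapy, again highest in replicate 3, with most of the sum in the class II genes H2-Aa, H2-Ab1 and H2-Eb1, which B cells share. Lyz2 had 61 to 183 counts in the combination and 58 to 423 in monotherapy, and Csf1r had 25 to 37 in the combination and 11 to 83 in monotherapy, both highest in monotherapy replicate 3. Cd68 was highest in combination replicate 3, at 208 to 384 counts in the combination and 245 to 325 in monotherapy, and Itgam in combination replicate 1. The least detected were Fcgr1, with 0 counts in the combination and 0 or 1 in monotherapy, and Cd14, with 0 to 2 counts in both groups. Of the 12 macrophage markers 4 had enough counts to test, and 0 passed in edgeR, DESeq2 or limma-voom, with 0 at an unadjusted p under 0.05. The part of these cells in the levels of Cxcl9, Cxcl16 and Cxcl10 was not tested.

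**Figure D3:**
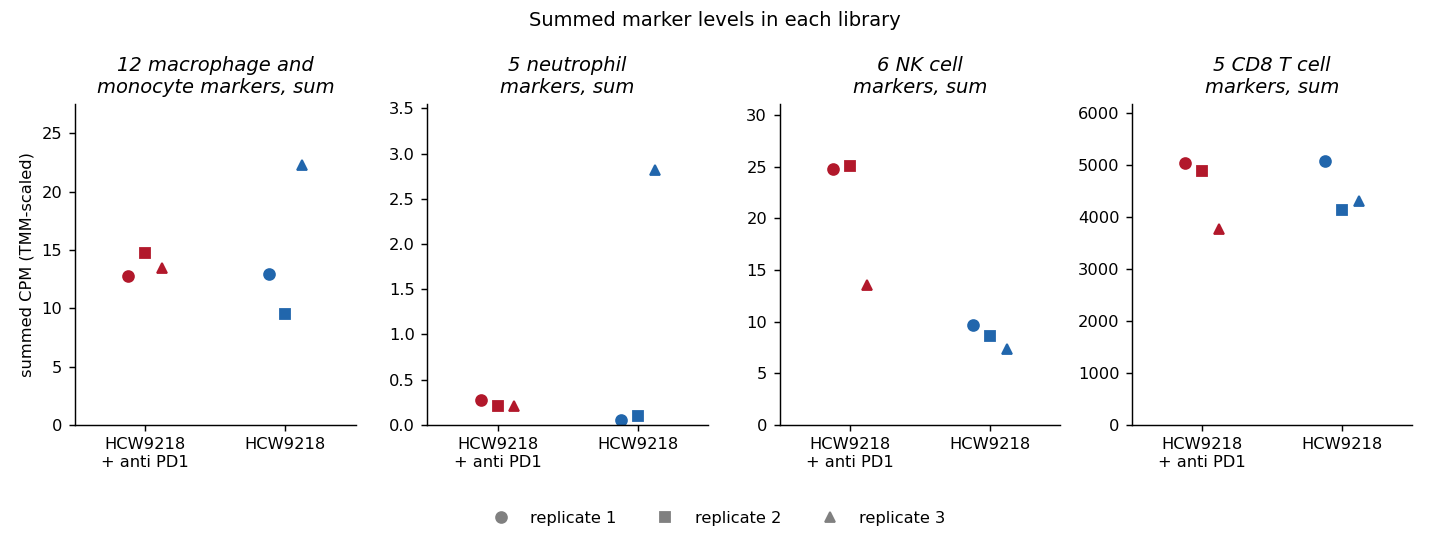
Summed CPM of marker lists for macrophages and monocytes, neutrophils, NK cells and CD8 T cells in each library, combination on the left and monotherapy on the right. Monotherapy replicate 3 is highest for both myeloid lists, and the NK list lies at 13.5 to 25.0 CPM in the combination, above 7.31 to 9.69 CPM in monotherapy.

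Ccl5, a chemokine of memory and effector CD8 T cells, was the most abundant member. It lies on the minus strand of chromosome 11 at 83525778 to 83530518. It had 115, 73.8 and 68.6 CPM in combination replicates 1, 2 and 3, against 35.2, 39.1 and 41.6 CPM in monotherapy replicates 1, 2 and 3. All combination libraries lay above all monotherapy libraries, and combination replicate 1 lay far above the other 2 of its group. The means were 85.8 ± 25.5 CPM in the combination and 38.6 ± 3.23 CPM in monotherapy (SD, n = 3 each). Ccl5 rose by 1.15 ± 0.20 (SE) on the log2 scale, with an edgeR adjusted p of 0.0274 and a 95% interval of 0.70 to 1.60. The call was lost without monotherapy replicates 1, 2 or 3 (adjusted p = 0.178, 0.148 and 0.118) and without combination replicate 2 (adjusted p = 0.0618), with log2 fold changes of 1.10, 1.16, 1.21 and 1.26. Without combination replicate 1, the highest library, it was 0.90 and passed (adjusted p = 0.0108), within a range of 3.49e-09 to 0.178 over 15 other settings.

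Ccl4, an inflammatory chemokine of activated T cells, lies on the plus strand of chromosome 11 at 83662584 to 83664683. It stood at 8.30, 7.75 and 5.52 CPM in combination replicates 1, 2 and 3, against 3.48, 4.47 and 3.64 CPM in monotherapy replicates 1, 2 and 3. The groups did not overlap. The log2 fold change was 0.89 ± 0.22 (SE), which in edgeR did not pass (adjusted p = 0.133; 0.0152 to 0.515 over 15 other settings). It passed in DESeq2 (adjusted p = 0.0306). In edgeR it passed with no count filter (adjusted p = 0.0177), and at 1.05 when combination replicate 3 was left out (adjusted p = 0.0161). The lowest p, 0.0152, came from combination replicate 1 alone against monotherapy, a fit that assumes the lone library to vary like monotherapy.

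Ccl3, close to Ccl4 on chromosome 11 (83647844 to 83649355, minus strand) and a ligand of Ccr1, likewise lay higher in the combination, at a lower level. It had 2.77, 2.29 and 1.63 CPM in combination replicates 1, 2 and 3, against 1.36, 1.37 and 0.917 CPM in monotherapy replicates 1, 2 and 3. Again the lowest combination library lay above the highest monotherapy library, at 1.63 CPM against 1.37 CPM. The log2 fold change was 0.87 ± 0.32 (SE) and did not pass (edgeR adjusted p = 0.446), with an unadjusted 95% interval of 0.15 to 1.59. The ratio of Ccl4 to Ccl3 in RPKM (CPM divided by the exon length in kilobases) was 3.48 to 3.92 in the combination and 2.96 to 4.61 in monotherapy, so it overlapped. Ccl3, Ccl4, Ccl5 and Xcl1, all under 1000 bases of exon, were each highest within the combination in replicate 1, where short genes lay highest, and lowest in replicate 3, where short genes lay lowest. Monotherapy did not follow this order. There short genes lay highest in replicate 1, at 0.11, where Xcl1 was highest, Ccl4 and Ccl5 were lowest and Ccl3 lay between. The part of this shift of short genes in the members' levels was not tested.

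Xcl1 on chromosome 1 (164931644 to 164935527, minus strand), which encodes the ligand of Xcr1, did not pass the test. It had 13.2, 11.1 and 6.99 CPM in combination replicates 1, 2 and 3, against 12.7, 9.68 and 9.82 CPM in monotherapy replicates 1, 2 and 3. The means were 10.5 ± 3.18 CPM in the combination and 10.7 ± 1.70 CPM in monotherapy (SD, n = 3 each). The log2 fold change was -0.04 ± 0.24 (SE; edgeR adjusted p = 0.987), with a 95% interval of -0.57 to 0.49, and it was 0.18 without combination replicate 3 and 0.11 without monotherapy replicate 1. Of its 523 exon bases, 98 are shared with Gm20743 on the opposite strand, which had a log2 fold change of -0.56 and did not pass. Ccl5 to Xcl1, as a ratio of RPKM, was 3.61 to 5.34 in the combination and 1.51 to 2.31 in monotherapy.

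Per length of exon, the order of the 7 levels in the combination was Ccl5, Xcl1, Ccl4, Ccl3, Cxcl10, Cxcl16 and Cxcl9. Mean RPKM ran from 89.4 ± 26.6 for Ccl5 through 20.0 ± 6.08 for Xcl1, 10.9 ± 2.23 for Ccl4, 2.91 ± 0.743 for Ccl3, 1.11 ± 0.315 for Cxcl10 and 0.604 ± 0.0742 for Cxcl16 to 0.113 ± 0.0452 for Cxcl9 (SD, n = 3). The libraries of neighbours in this order did not overlap. In monotherapy the order was Ccl5, Xcl1, Ccl4, Cxcl10, Ccl3, Cxcl16 and Cxcl9. There the means were 40.3 ± 3.36 for Ccl5, 20.5 ± 3.26 for Xcl1, 5.86 ± 0.805 for Ccl4, 3.90 ± 0.410 for Cxcl10, 1.59 ± 0.340 for Ccl3, 0.760 ± 0.618 for Cxcl16 and 0.240 ± 0.204 for Cxcl9 (SD, n = 3). Ccl3 and Cxcl16, and Cxcl16 and Cxcl9, overlapped there. Cxcl10 stood above Ccl3 in each monotherapy library and below it in each combination library. With the longest protein-coding transcript as the length, Cxcl10 was at 1.85 RPKM in the combination and 6.50 RPKM in monotherapy, where it then stood above Ccl4 at 5.86 RPKM. Ccl5 was then at 161 RPKM in the combination and 72.6 RPKM in monotherapy, and its shares and ratios given here rest on the longer exon length.

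**Figure D4:**
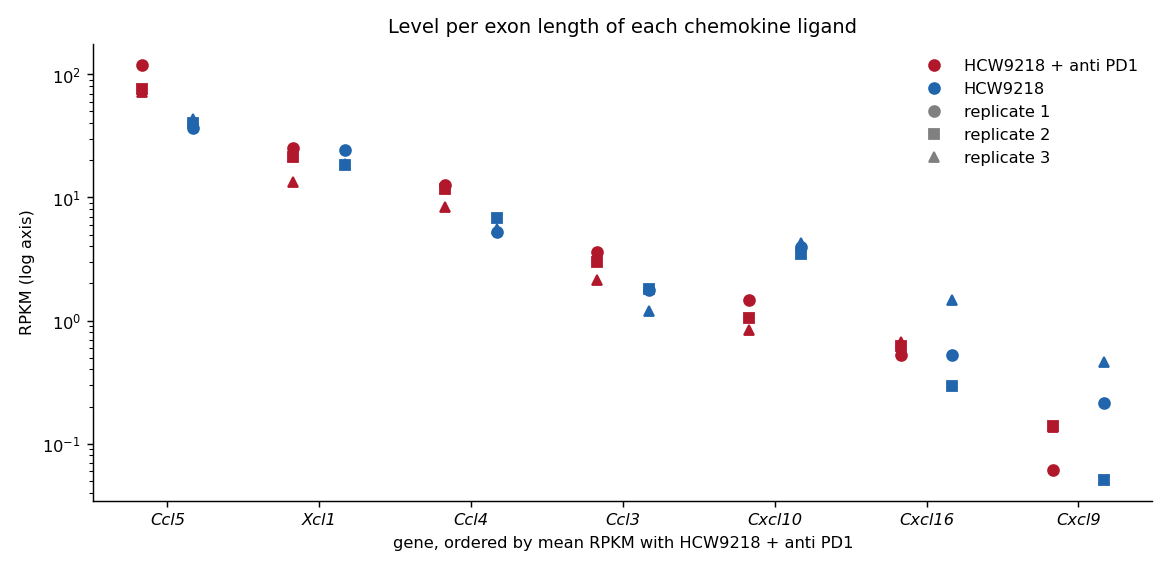
RPKM on a log axis for each ligand and library, with combination libraries left of monotherapy libraries. Ccl5 is the most abundant in both groups, and Cxcl10 lies below Ccl3 in the combination and above it in monotherapy.

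Of the summed RPKM of all 7 genes, Ccl5 made up 71.4% ± 3.76 in the combination and 55.0% ± 3.99 in monotherapy (SD, n = 3 each). Xcl1 made up 15.9% ± 2.41 in the combination and 28.1% ± 4.60 in monotherapy. The share of Cxcl10 was 0.889% ± 0.0215 in the combination and 5.33% ± 0.441 in monotherapy. The ratio of Ccl5 to Cxcl10 in RPKM was 82.3, 73.7 and 85.1 in combination replicates 1, 2 and 3, against 9.24, 11.7 and 10.1 in monotherapy replicates 1, 2 and 3. This ratio describes the opposite calls of both genes and is no separate result.

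NK cells also make Ccl3, Ccl4, Ccl5 and Xcl1. The 6 NK markers summed to 24.8, 25.0 and 13.5 CPM in combination replicates 1, 2 and 3, against 9.69, 8.59 and 7.31 CPM in monotherapy replicates 1, 2 and 3. Of the 6, Klre1 rose by 1.65 ± 0.25 (SE; edgeR adjusted p = 0.0161) and 5 did not pass, with a list median of 1.07. Klre1 made the greatest part of the sum, at 15.2, 15.3 and 8.73 CPM in combination replicates 1, 2 and 3, against 4.51, 4.67 and 3.31 CPM in monotherapy replicates 1, 2 and 3. Klrb1c overlapped between the groups, at 73 to 130 counts in the combination and 65 to 84 in monotherapy. So did Ncr1, at 5 to 11 counts in the combination and 2 to 13 in monotherapy, and Klra4. Klra8 did not overlap, at 33 to 63 counts in the combination and 13 to 24 in monotherapy. Nor did Klra9, at 48 to 104 counts in the combination and 32 to 44 in monotherapy. In edgeR 3 of the 6 had an unadjusted p under 0.05, as had 1211 of all 15142 genes tested. Counts of a whole library do not tell whether NK cells or the sorted CD8 T cells held the RNA of these 6 genes. The part of NK cells in the levels of the Ccl genes was not tested. Of 7 B cell markers Cd22 rose and 6 did not pass, and 0 of 3 CD4 T cell markers, 5 stromal and endothelial markers tested, 7 dendritic cell markers tested or 5 CD8 T cell markers passed in edgeR. At an unadjusted p under 0.05 there was 1 of these, the dendritic cell marker Itgax, which DESeq2 called higher; limma-voom called 0. The lowest p in each of these lists belonged to Itgax (log2 fold change 0.93 ± 0.22), Cd4 (-1.02 ± 0.50), Pecam1 (-0.21 ± 0.13) and Cd3d (0.17 ± 0.24; all SE). Among melanocyte genes Pmel alone could be tested, at 0.18 ± 0.16 (SE), and the 5 genes summed to 29.0 to 51.9 CPM in the combination and 20.9 to 27.1 CPM in monotherapy. Pmel by itself stood at 23.0 to 29.9 CPM in the combination and 20.9 to 27.0 CPM in monotherapy. It made up all of the sum in combination replicate 1 and nearly all of it in monotherapy. The part of pigment gene RNA in the members' levels was not tested.

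Receptor genes were read from a list of 5, of which 3 had enough counts to test and 1 rose. Cxcr3, the receptor of Cxcl9 and Cxcl10, had 90.5, 93.3 and 90.9 CPM in combination replicates 1, 2 and 3, against 47.4, 47.0 and 50.5 CPM in monotherapy replicates 1, 2 and 3. The libraries lay close together within each group and the groups did not overlap. Cxcr3 rose by 0.92 ± 0.12 (SE) on the log2 scale (edgeR adjusted p = 6.80e-03). It did not pass without monotherapy replicates 1, 2 or 3 (adjusted p = 0.0652, 0.0715 and 0.0656). Xcr1, the receptor of Xcl1, had 2.43, 2.37 and 2.77 CPM in combination replicates 1, 2 and 3, against 1.56, 1.98 and 1.95 CPM in monotherapy replicates 1, 2 and 3. Its groups did not overlap, and its log2 fold change of 0.46 ± 0.25 (SE) did not pass (edgeR adjusted p = 0.751). Cxcr6, the receptor of Cxcl16, overlapped at 84.5 to 158 CPM in the combination and 110 to 174 CPM in monotherapy, with a log2 fold change of -0.06 ± 0.25 (SE). Ccr1 and Ccr3, at 0 to 2 counts in the combination and 0 to 9 in monotherapy, were not tested.

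**Figure D5:**
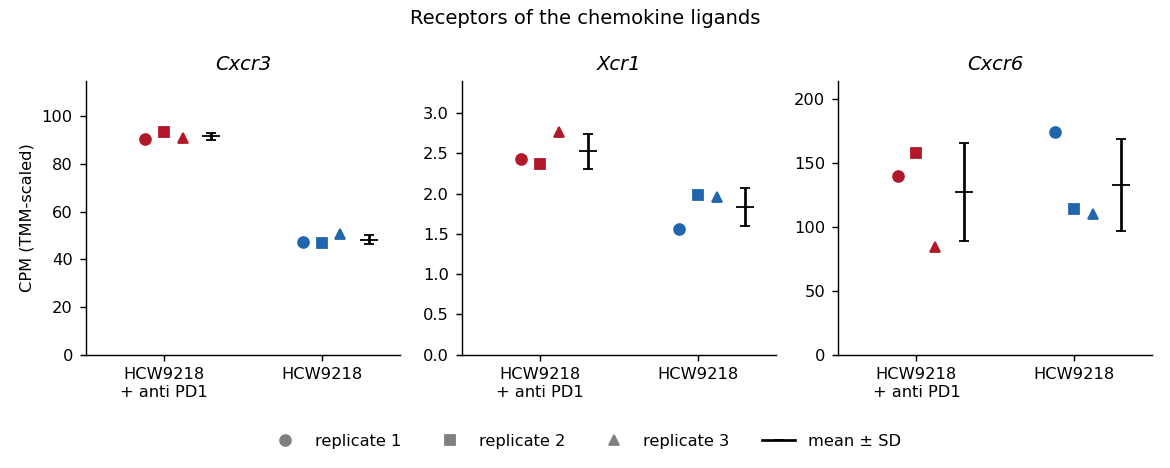
CPM of the receptors Cxcr3, Xcr1 and Cxcr6 in each library, combination on the left and monotherapy on the right, with mean ± SD over 3 mice. Cxcr3 rose without overlap, at 90.5 to 93.3 CPM in the combination and 47.0 to 50.5 CPM in monotherapy, and Cxcr6 overlapped between the groups.

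Most other genes of the chemokine family had few counts in these cells, but not all. Ccl22, Ccl25 and Ccl27a lay above the member Cxcl9 in mean CPM in both groups, and Ccl25 also above Ccl3 and Cxcl16. Of 30 other ligands 27 had too few counts to test, with at most 20 counts in any library, and 4 of those had 0 counts in all 6 libraries (Ccl19, Ccl21a, Cxcl17 and Ppbp). For a gene without counts, the limit of 3 counts per library allowed 0.0777 to 0.0912 CPM in the combination and 0.0724 to 0.0836 CPM in monotherapy. Of the 3 tested 0 passed in edgeR, DESeq2 or limma-voom, with 0 at an unadjusted p under 0.05. Ccl22, a ligand of Ccr4, averaged 2.54 ± 0.484 CPM in the combination and 3.20 ± 0.561 CPM in monotherapy (SD, n = 3 each). Ccl25, a ligand of Ccr9, was at 5.32 ± 1.02 CPM in the combination and 4.80 ± 0.546 CPM in monotherapy, and Ccl27a was at 1.57 ± 0.436 CPM in the combination and 1.89 ± 0.130 CPM in monotherapy. Cxcl11, the remaining Cxcr3 ligand gene, had 0 to 4 counts in the combination and 0 to 2 in monotherapy. Enzymes that cut chemokines were abundant and did not pass: Adam10, which sheds Cxcl16, had a log2 fold change of 0.02 ± 0.13, Adam17 of 0.15 ± 0.13 and Dpp4, which trims Cxcl10 and Ccl5, of -0.20 ± 0.18 (SE).

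Of 20 genes of interferon and NF-kB signalling, which lies upstream of Cxcl9 and Cxcl10, 0 passed in edgeR or limma-voom. In the list 16 lay below 0 and 4 above, where 7593 of all 15142 genes lay below 0. The list mixes activators and feedback inhibitors, so these numbers give no direction of the signalling. Its median was -0.09 against 0.00 (-5.98e-04) over all genes. In edgeR 4 had an unadjusted p under 0.05, a level that 1211 of the 15142 genes reached. DESeq2 called Irf1 lower and Ifngr1 higher. Irf1, a transcription factor that interferon-gamma induces, had 375, 340 and 327 CPM in combination replicates 1, 2 and 3, against 594, 556 and 511 CPM in monotherapy replicates 1, 2 and 3. The groups did not overlap, but its log2 fold change of -0.67 ± 0.15 (SE) did not pass in edgeR (adjusted p = 0.0884). Ifngr1, a chain of the interferon-gamma receptor, was at 0.75 ± 0.18 (SE; adjusted p = 0.118) and the interferon regulator Irf7 at -0.52 ± 0.15 (SE; adjusted p = 0.226). Ifng itself had 12.2, 10.4 and 7.33 CPM in combination replicates 1, 2 and 3, against 9.78, 11.6 and 8.61 CPM in monotherapy replicates 1, 2 and 3, and these overlapped.

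Of 10 transcription factors of activated T cells, Tbx21 rose and 9 did not pass. Tbx21, the gene of the effector T cell factor T-bet, had 30.7, 32.5 and 35.7 CPM in combination replicates 1, 2 and 3, against 7.94, 13.0 and 12.8 CPM in monotherapy replicates 1, 2 and 3. Its log2 fold change was 1.55 ± 0.20 (SE; edgeR adjusted p = 6.91e-03), and it passed whichever library was left out (1.91e-03 to 0.0455). Unlike Ccl5, it was highest in combination replicate 3. Klf13, a factor known to act on the Ccl5 promoter, had a log2 fold change of -0.16 ± 0.15 and Eomes one of 0.52 ± 0.14 (SE), and neither passed, nor did Bhlhe40 at -0.63 ± 0.28 (SE).

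The genes nearest to Cxcl10 and Ccl5 in pattern were found by the root mean square difference of log2 CPM over the 6 libraries, each gene centred on its own mean. Genes with Gm, Rik or clone-style names and T cell receptor or immunoglobulin segments were left out of this search. For Cxcl10 the nearest were the kinase gene Sik1 at 0.26, Fam228b at 0.29 and Mir1932 at 0.34, set against a spread of Cxcl10 itself of 0.94. Sik1 averaged 27.8 CPM in the combination and 70.2 CPM in monotherapy and also fell (edgeR adjusted p = 5.17e-03), while Fam228b and Mir1932 were under 1 CPM and did not pass. For Ccl5, with a spread of 0.61, the nearest were Anxa2, an annexin of effector and memory T cells, at 0.12, the centromere gene Cenpm at 0.14 and Fam72a at 0.15. Anxa2 averaged 62.8 CPM in the combination and 26.3 CPM in monotherapy and rose (adjusted p = 0.0107), and the other two did not pass. Over 6 libraries in 2 groups this measure does not separate likeness within a group from a like difference between the groups.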

How the data were processed

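RNA sequencing of CD8+ T cells gave 6 libraries, 3 per group, grouped by the sample titles. The labels do not say that same-numbered mice are paired. The deposited counts are whole reads per gene, not normalized; the tools that the submitters' processing notes list are DESeq2, featureCounts, STAR (2.5.2b) and Subread (1.5.2). The genome build, strand setting and filters are not given there. Counts of the series table equalled those of the per-library files in 6 of 6 libraries, and 6 further columns matched no sample and were not used. Of 49056 genes found in GENCODE M21 (GRCm38), 91.4% had the same position, as had all 7 members.

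The tests ran in R (4.3.3) using edgeR (4.0.16; filterByExpr, TMM, quasi-likelihood test, no covariate), with limma 3.58.1 (voom) and DESeq2 1.42.0 as alternatives. A check on simulated counts concerned the median log2 fold change and set no limit on false calls. It changed only genes with many counts. Adjustment ran over all genes tested. Each SE is the size of the unshrunk log2 coefficient over the root of its F statistic. RPKM uses the exon length in the deposited files. The members and gene lists were chosen with earlier results of these data known, and some list genes are not reported here. Genes were named by a rule: all members, genes that overlap their exons, list genes that passed or else the 3 with the smallest p, and the 3 nearest genes in pattern of each called member. Marker lists departed from it, with sums, counts and fewer names. Ifng, Klf13, Eomes, Bhlhe40, Cxcl11, Cxcr6, Xcr1 and single marker genes were named after their values were seen. Log2 CPM had a prior count of 2. Because pairing is not stated, the numbers were not taken as pairs, and a replicate block was run as an alternative. Deviations of same-numbered libraries correlated at 0.15, -0.06 and 0.28, which does not settle whether the mice were paired. Chi-square per gene between libraries ran from 9.79 to 295, so no library was a repeat of another. Counting limits cover counting error only, and p-values cover the spread between these mice.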

Additional observations from a re-analysis of the deposited data

How the results depend on the processing

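Cxcl10 lay below 0 in 16 of 16 other settings (-2.03 to -1.43, passing in 14) and Ccl5 above 0 in 15 of 15 (0.90 to 1.57, passing in 11). Both tallies and the values -1.43 and 1.57 include combination replicate 1 alone, assumed to vary like monotherapy. The members that rose numbered 2 with DESeq2 and with no count filter, through Ccl4, and 0 to 2 when each library was left out; those that fell then numbered 0 to 1. Over all genes, 144 rose and 20 fell; leaving out each library gave 32 to 233 and 2 to 49, no count filter 340 and 113, DESeq2 258 and 59, and the replicate block 231 and 57. The replicate block changed no call of a member. Xcl1 changed sign without combination replicate 3 (0.18), without monotherapy replicate 1 (0.11) and with combination replicate 1 alone (0.30), and Cxcl16 without monotherapy replicate 3 (0.56); leaving out each library gave -0.23 to 0.18 for Xcl1 and -0.72 to 0.56 for Cxcl16, and neither passed in any setting. The cause of these changes was not tested, and the fits that leave out libraries also hold fewer samples. The 3 other scalings moved the median of all genes by at most 0.02 on the log2 scale and changed no call of a member. Cxcl9 had too few counts for the filter of 1 CPM in 3 libraries. A transcript length for RPKM was added after the data were seen; with it Ccl5 was at 161 RPKM in the combination and 72.6 RPKM in monotherapy. Cxcl9 had 6 to 57 counts a library, which limits its precision.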
